A study of Mus musculus with 4 samples.

Results

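The RNase A family of the mouse, the angiogenins and their secreted ribonuclease relatives, was examined in Paneth cells of mice with and without gut microbes. Members were all probe sets whose platform annotation named Ang, or a symbol made of Ang, Rnase or Ear and a digit. This gave 14 probe sets of 11 genes, out of 45037 probe sets (18193 named genes) other than array controls. The genes were Ang, Ang2, Ang3, Ang4, Rnase1, Rnase2a, Rnase2b, Rnase4, Rnase6, Rnase10 and Ear3. No member probe set named several genes. No probe set was assigned to Ear1 or Ear2 in the annotation used, so both are not analysed here.

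Paneth cells sit at the bottom of small intestinal crypts and secrete antimicrobial granules. They were taken by laser capture from cryosections of NMRI males aged 8 weeks. The conventionalized group had been raised germ-free and then carried the flora of a conventionally raised mouse for 10 days, and the germ-free group was kept without microbes throughout. In each group RNA of 3 mice was pooled and 2 aliquots of 10 ng were amplified, each onto 1 Affymetrix Mouse430_2 array. The 2 arrays of a group therefore repeat the amplification of 1 pool, the spread between mice was not measured, and every p-value below is set against amplification and array error only.

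RNase A family proteins are small secreted enzymes held by disulfide bonds that cleave RNA. Several of them also kill microbes, and that activity is in part separate from RNA cleavage. Angiogenin, the product of Ang, was named for its ability to make blood vessels grow and is a weak ribonuclease. Ang4 is a mouse angiogenin made by Paneth cells and secreted into the gut lumen, where it can kill bacteria. The Ear genes encode eosinophil-associated ribonucleases, and Rnase1 encodes the pancreatic-type enzyme. Rnh1, the cytosolic ribonuclease inhibitor, binds and blocks most of the family.

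The 20 family genes in the RefSeq table of assembly GRCm38.p6 all lay on chromosome 14. Ang4 lay at chr14:51763892-51773590. Ang (chr14:51091077-51102009) and Rnase4 (chr14:51091077-51106151) overlapped and shared their first annotated start. The 3 promoter windows printed here are from RefSeq (GRCm38.p6), each covering 250 bases before to 50 bases after a start. They show how alike the sequences around these starts are, and coding sequences were not compared. Ang5 is included because the transcript record behind the probe set annotated as Ang3 belonged to Ang5 in the RefSeq table. The capitals mark the longest run that the Ang4 and Ang5 windows shared, 30 bases.
Ang4, chr14:51773541-51773840, minus strand: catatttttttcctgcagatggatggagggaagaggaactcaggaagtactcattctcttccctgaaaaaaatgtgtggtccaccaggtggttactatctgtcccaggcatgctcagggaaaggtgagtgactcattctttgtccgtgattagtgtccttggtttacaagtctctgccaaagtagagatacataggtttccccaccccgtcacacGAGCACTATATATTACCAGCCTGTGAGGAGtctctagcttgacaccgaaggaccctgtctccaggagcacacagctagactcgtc
Ang5, chr14:43956819-43957118, plus strand: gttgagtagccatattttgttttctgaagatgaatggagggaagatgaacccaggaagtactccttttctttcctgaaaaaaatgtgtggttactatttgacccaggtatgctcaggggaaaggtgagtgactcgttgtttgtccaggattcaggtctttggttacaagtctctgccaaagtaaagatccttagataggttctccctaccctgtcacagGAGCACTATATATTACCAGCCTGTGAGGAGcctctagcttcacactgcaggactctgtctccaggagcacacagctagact
Ang and Rnase4, chr14:51090827-51091126, plus strand: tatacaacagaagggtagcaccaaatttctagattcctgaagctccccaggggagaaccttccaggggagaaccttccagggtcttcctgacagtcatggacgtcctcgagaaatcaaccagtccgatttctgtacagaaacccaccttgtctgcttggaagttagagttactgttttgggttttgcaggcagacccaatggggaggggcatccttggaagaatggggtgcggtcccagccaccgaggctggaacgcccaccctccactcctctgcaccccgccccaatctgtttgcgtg

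Over the aligned bases the Ang4 and Ang5 windows were 89.8% identical, and the Ang5 and Ang6 windows were 100% identical. The Ang4 window was 55.1% identical to the window that Ang and Rnase4 share. Rnase4 had a second window of its own, and Ang had none. In all, 4 motifs were searched on both strands, and no matches overlapped in these 3 windows. They were TATAAA of core promoters, the core CTTTGA bound by the Wnt pathway factors of the Lef1 family, the STAT factor site TTCNNNGAA, and the E-box CAGCTG. The sole match to the motifs as written was a STAT site, TTCCCTGAA, that began 192 bases before the Ang4 start. Variant forms, such as other TATA sequences, were not searched. Such a STAT site was in 8.3% of all 32851 windows and in 3 of 23 family windows. TATAAA was in 13.6%, CTTTGA in 16% and CAGCTG in 16.3% of all windows. Among the 23 family windows they were in 0, 4 and 4.

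Ang4 was higher in the conventionalized pool at both of its probe sets, and it was the one family gene with a called difference. At probe set 1440832_at the signal was 9390.3 and 7270.8 on the conventionalized arrays, against 1803.9 and 2440.5 on the germ-free arrays. At probe set 1438364_x_at it was 26014.7 and 23093.7 on the conventionalized arrays, against 9341.5 and 11267.6 on the germ-free arrays. Both conventionalized arrays lay above both germ-free arrays at each probe set. With 32 added to each signal, as in the fit, the smallest ratio among the 4 pairs of arrays was 2.95 at 1440832_at and 2.05 at 1438364_x_at.

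Signals are the authors' intensities, already scaled to one trimmed mean on every array. Differences were computed on log2(signal + 32), conventionalized minus germ-free, and tested with limma on the 22491 probe sets whose mean signal exceeded the median of 113.9. A probe set was called at an adjusted p under 0.05. Ang4 rose 3.89-fold at 1440832_at, that is by 1.96 ± 0.46 in log2 units (SE; limma on 2 arrays per group, adjusted p = 0.0116). At 1438364_x_at the log2 difference was 1.25 ± 0.66, or 2.38-fold, and was not called (limma adjusted p = 0.999). With quantile normalization it was 0.82, and it was not called in any of the 13 alternatives.

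The standard errors come from probe sets of like signal, since limma's prior degrees of freedom were infinite. The error from each probe set's own duplicates was 0.28 at 1440832_at and 0.16 at 1438364_x_at. Without the variance trend Ang4 1440832_at was not called (limma adjusted p = 0.9995, unadjusted p = 0.00467), and 0 of all probe sets were called, though 3 family probe sets and 4.34% of all had an unadjusted p under 0.05. It also lost its call with median centring (limma adjusted p = 0.521), with the aliquot number as a replicate block (0.169), without germ-free replicate 1 (0.111) and without either conventionalized array (0.186 without replicate 1, 0.190 without replicate 2). Its log2 difference stayed between 1.75 and 2.18 in all 13 alternatives. An exact permutation test of 2 arrays against 2 could not go below p = 0.333.

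**Figure D1:**
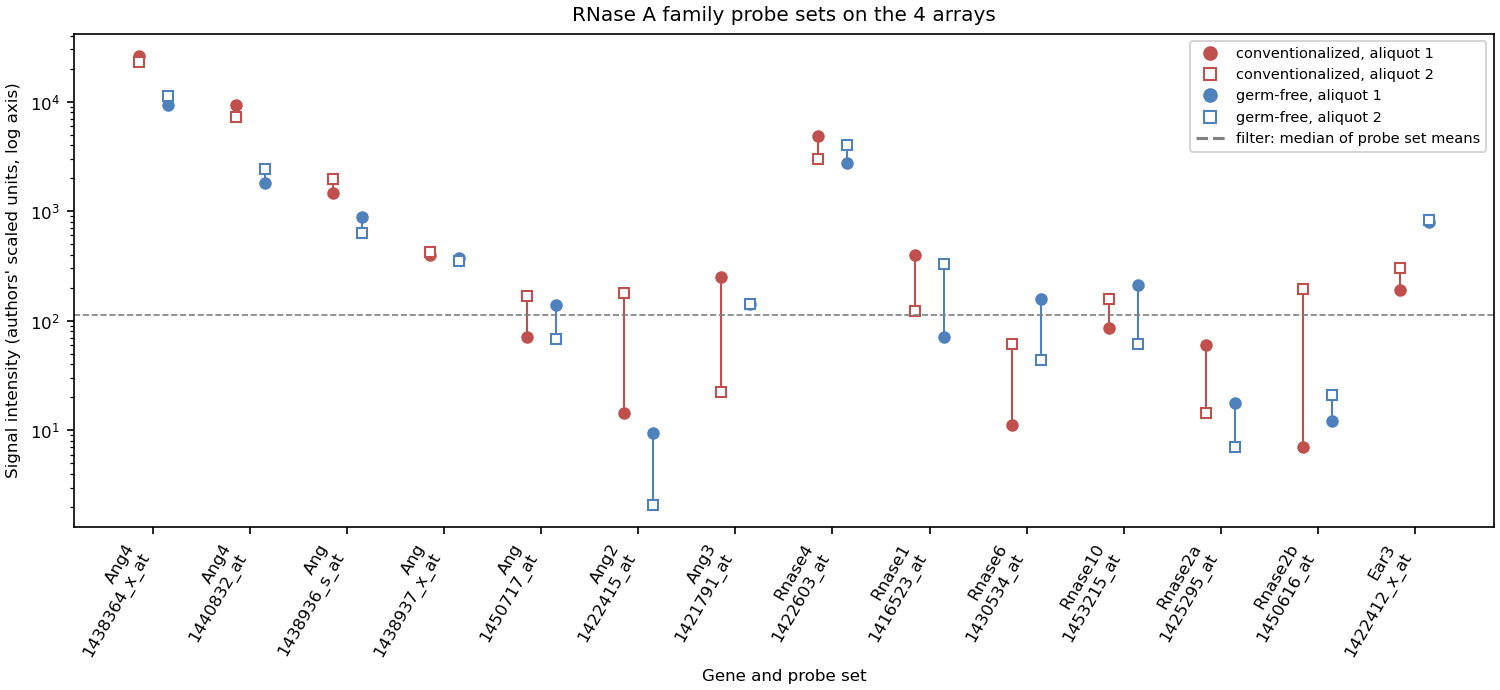
Signal of each RNase A family probe set on the 4 arrays (log axis, the authors' scaled units), with conventionalized arrays in red left of germ-free arrays in blue, circles for aliquot 1 and squares for aliquot 2 and a line joining the 2 arrays of a pool. Both Ang4 probe sets lie higher in conventionalized cells and Ear3 lies higher in germ-free cells. The duplicates of the dim probe sets lie far apart in at least 1 pool. The dashed line is the signal filter of 113.9.

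In all, 9 of the 14 probe sets, from 7 genes, passed the signal filter. Of these, 1 was called higher and 0 were called lower, while 3 had an unadjusted limma p under 0.05. Over all probe sets tested, 0.12% were called higher, 0.213% lower, and 5.13% had an unadjusted p under 0.05. The members were taken up with results on this data set known, so their count describes them and supports nothing further. The median log2 difference of the 9 probe sets was 0.19, against 0.00 over all probe sets tested. Both conventionalized arrays lay above both germ-free arrays at 4 of the 9 and below them at 1, while among all probe sets tested 15.8% lay above and 15.3% below, 31.1% in all. The 4 were both Ang4 probe sets and 2 of Ang, and the 1 was Ear3. In every one of the 4 pairs, a difference of 2-fold or more was seen at both Ang4 probe sets, upward, and at Ear3, downward, against 0.783% upward and 0.947% downward over all probe sets tested.

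**Figure D2:**
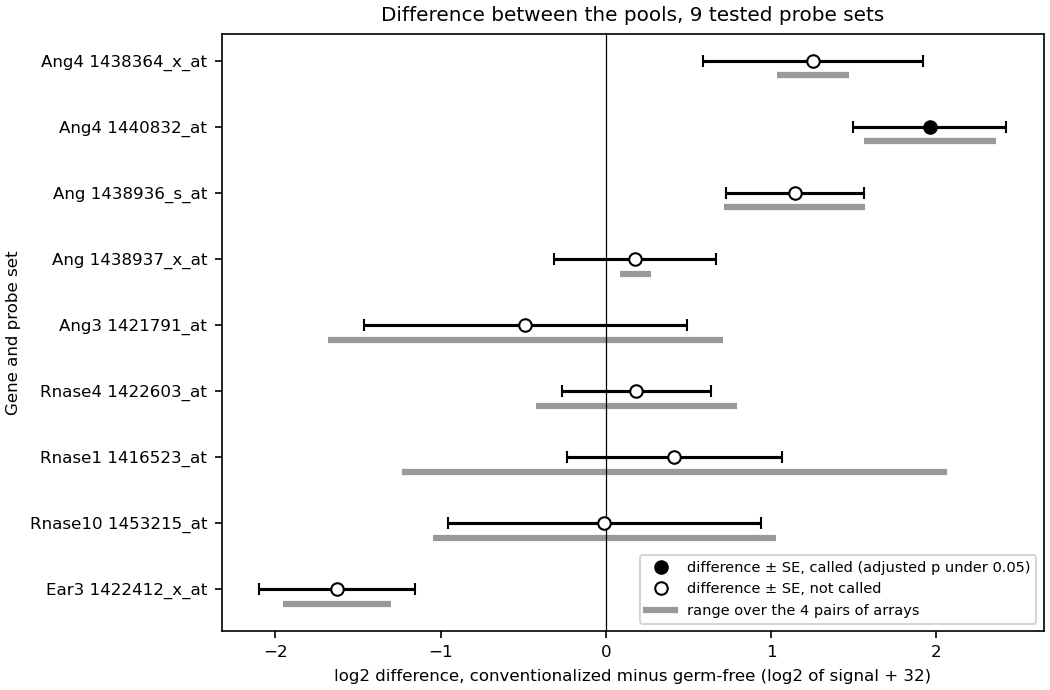
Log2 difference, conventionalized minus germ-free, of the 9 tested probe sets, with the SE fitted by limma as error bars and grey bars for the range over the 4 pairs of arrays. Ang4 1440832_at at 1.96 is the called one (filled), and Ear3 at -1.63 is the farthest below 0.

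The 3 probe sets of Ang gave unlike values. At 1438936_s_at the signal was 1479.8 and 1953.0 on the conventionalized arrays, against 887.8 and 636.2 on the germ-free arrays. The groups did not overlap, and the log2 difference of 1.14 ± 0.42 (SE) was not called (limma adjusted p = 0.430). At 1438937_x_at the signal was 401.8 and 428.0 on the conventionalized arrays, against 377.3 and 348.8 on the germ-free arrays. Here too the groups did not overlap, but the log2 difference was 0.18, with a 95% interval from -0.78 to 1.14. The third, 1450717_at, was under the filter and read 71.4 and 169.8 on the conventionalized arrays, against 140.1 and 68.8 on the germ-free arrays, with overlapping groups. The suffixes _s_at and _x_at mark probe sets whose probes can bind related transcripts. Which angiogenin gave the signal at 1438936_s_at and at 1438364_x_at of Ang4 was not tested.

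Rnase4, a ribonuclease that prefers to cut after uridine, had no called difference. Its signal was 4807.5 and 2996.0 on the conventionalized arrays, against 2764.4 and 4022.6 on the germ-free arrays, and the groups overlapped. The log2 difference of 0.19 ± 0.45 (SE) was not called (limma adjusted p = 0.999), and its 95% interval ran from -0.70 to 1.07. Its sign turned without germ-free replicate 1 (-0.08) or conventionalized replicate 1 (-0.15). Whether the difference at Rnase4 departs from that at Ang 1438936_s_at, whose gene shares its first start, was not tested.

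Ang2 and Ang3, relatives of angiogenin, were dim. Ang2 read 14.5 and 179.5 on the conventionalized arrays, against 9.4 and 2.1 on the germ-free arrays. The groups did not overlap, but 1 conventionalized array alone carried the signal and the probe set was under the filter. The probe set annotated as Ang3 read 252.0 and 22.2 on the conventionalized arrays, against 141.7 and 142.2 on the germ-free arrays. The conventionalized duplicates lay on either side of the germ-free pair, and the log2 difference of -0.49 became 0.71 without conventionalized replicate 2.

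Ear3, an eosinophil-associated ribonuclease, ran the other way from Ang4. Its probe set 1422412_x_at read 190.3 and 303.1 on the conventionalized arrays, against 793.8 and 828.2 on the germ-free arrays. Both germ-free arrays lay above both conventionalized arrays, and the group means on the log2(signal + 32) scale were 3.09-fold apart. The log2 difference of -1.63 ± 0.47 (SE) was not called (limma adjusted p = 0.103, unadjusted p = 0.000584). Its direction was the same in all 13 alternatives. It was called when only the brightest 25% of probe sets were tested (limma adjusted p = 0.0206), a cut at a mean signal of 256.65. Ear3 passed that cut through its germ-free mean of 811, since its conventionalized mean was 246.7. That call therefore adds no support. Ear3 was also called with the crossed pairing of aliquots, a setting chosen after seeing the data (limma adjusted p = 0.00954). The remaining alternatives did not call it. Ear3 matched no gene of the RefSeq table, so it is not among the 20 family genes placed on chromosome 14. It is one of a set of similar genes and its probe set carries the _x_at suffix. Which Ear transcripts gave its signal was not tested.

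Most markers of the cells that make Ear ribonucleases were dim. Of 11 eosinophil and neutrophil markers 10 were measured, and 9 of these were under the signal filter, Epx, Siglecf and Ccr3 among them. Their summed signal was 313.1 and 742.6 on the conventionalized arrays, against 785.5 and 428.5 on the germ-free arrays, so the groups overlapped. Prg2, the major basic protein of eosinophil granules and the sole member tested, differed by -0.10 ± 1.06. Macrophage and dendritic cell markers summed to 4416.1 and 3453.2 on the conventionalized arrays, against 3547.2 and 3069.6 on the germ-free arrays. None of their 6 tested members was called by limma, and 0 had an unadjusted p under 0.05. The part of either cell type in the Ear3 signal was not tested.

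Rnase1, the pancreatic-type ribonuclease, could not be told apart between the pools. It read 397.3 and 123.1 on the conventionalized arrays, against 70.6 and 333.0 on the germ-free arrays, and the groups overlapped. The log2 difference was 0.42 ± 0.65, with a 95% interval from -0.86 to 1.69, and its sign turned without germ-free replicate 1 or conventionalized replicate 1. Of 12 exocrine pancreas markers 9 were measured and 4 tested. Limma called 0 of these, and 0 had an unadjusted p under 0.05. The 9 measured markers summed to 776.2 and 1434.7 on the conventionalized arrays, against 1477.5 and 589.4 on the germ-free arrays.

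The remaining ribonucleases had means near or under the signal filter. Rnase10, known from the epididymis, read 86.4 and 158.7 on the conventionalized arrays, against 212.4 and 61.5 on the germ-free arrays, a log2 difference of -0.01 ± 0.95. Rnase6, an antimicrobial ribonuclease of leukocytes and urinary epithelium, was under the filter and read 11.2 and 61.7 on the conventionalized arrays, against 159.0 and 43.5 on the germ-free arrays. Rnase2a and Rnase2b, both of the eosinophil-associated branch, were under the filter as well. Rnase2a read 60.4 and 14.3 on the conventionalized arrays, against 17.9 and 7.1 on the germ-free arrays. Rnase2b read 7.0 and 194.3 on the conventionalized arrays, against 12.2 and 20.8 on the germ-free arrays. In these 4 genes the groups overlapped.

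Duplicate gaps differed widely among the members. The gap between the 2 arrays of a pool was 0.17 (conventionalized) and 0.27 (germ-free) on the log2 scale for Ang4 1438364_x_at, and 0.37 and 0.43 for 1440832_at. Over all probe sets tested the median gap was 0.62 in the conventionalized and 0.54 in the germ-free pool, and over the brightest 25% of them it was 0.42 and 0.46. Among the dim members the conventionalized gap reached 2.54 at Rnase2b and 2.39 at Ang3, wider than the group difference of either. Conventionalized replicate 2 stood apart on the whole array, with Pearson correlations across probe sets of 0.754 to 0.779 with the other arrays, against 0.855 to 0.890 among those 3. All 4 arrays shared a chip lot and a scanner, but fluidics station 2 washed the conventionalized arrays and station 1 the germ-free ones. Station and group therefore cannot be told apart.

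**Figure D3:**
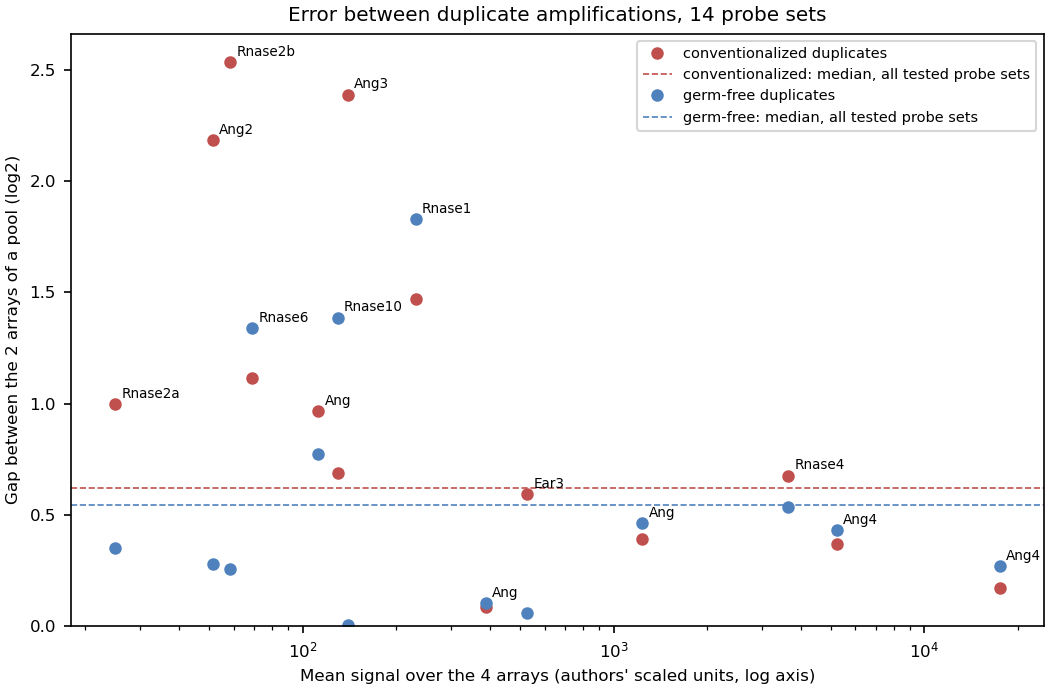
Gap between the 2 arrays of each pool (log2 of signal + 32) against mean signal over the 4 arrays (log axis) for the 14 family probe sets, conventionalized in red and germ-free in blue, with dashed lines for the medians of 0.62 and 0.54 over all tested probe sets. Ang4 lies below both lines, whereas Rnase2b, Ang3, Ang2 and Rnase1 lie far above them in at least 1 pool.

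Paneth cell markers had log2 differences above 0, as Ang4 did, and 1 was called. Of 10 Paneth cell markers 8 were measured, and each of these 8 was higher on average in the conventionalized pool (median log2 difference 1.91), against 0.00 over all genes tested. The called one was Mptx1, and 0.107% of all genes were called higher and 0.248% lower. Their summed signal was 236676 and 589570 on the conventionalized arrays, against 54604.2 and 126460 on the germ-free arrays. Fewer Paneth cells in the capture and less of these transcripts per cell cannot be told apart in such bulk samples, and the part of the Paneth cell share in the Ang4 difference was not tested. Absorptive enterocyte markers were bright in both pools, with sums of 118309 and 272534 on the conventionalized arrays, against 105962 and 191163 on the germ-free arrays. Their 12 tested members had a median of -0.53, 10 below 0 and 2 above, with Apoc3, an apolipoprotein, called lower. The 2 above 0 were Fabp2 (1.47 ± 1.03) and Apoa4 (0.59 ± 0.81), neither of them called. Much of the sums came from Fabp2, at 51528 and 142558 on the conventionalized arrays, against 20981.4 and 45251.9 on the germ-free arrays. Goblet cell markers, 9 tested, had a median of 0.54, 7 above 0 and 2 below, with Retnlb, a resistin-like protein, called higher. Their sums were 117144 and 202183 on the conventionalized arrays, against 46163.5 and 85864 on the germ-free arrays.

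The wider list of Paneth granule proteins shares Mptx1, Lyz1 and others with the Paneth cell markers, and Zg16 with the goblet cell markers. Of its 33 genes 20 were measured and 18 tested, and 3 were called higher and 0 lower. Over all genes tested, 0.107% were called higher and 0.248% lower. The list's median log2 difference was 1.74, against 0.00 over all genes tested. An unadjusted limma p under 0.05 was found for 11 of the 18, and for 5.13% of all probe sets tested. The called genes were Reg3g, a lectin that kills Gram-positive bacteria (4.90 ± 0.50), Dmbt1, a scavenger receptor protein that binds bacteria (3.13 ± 0.64), and Mptx1, a pentraxin (2.74 ± 0.48). Lyz1, a lysozyme, was at 2.00 ± 1.16 and not called. Of the 18 genes 15 had a value above 0 and 3 below, and these 3, named after their values were seen, were Reg3a, a lectin (-1.12 ± 0.42), Guca2b, uroguanylin (-0.75 ± 0.43), and Sntb1, a syntrophin (-0.97 ± 0.90). None of the 3 was called by limma. The groups did not overlap for Reg3a and Guca2b, as for 31.1% of all probe sets tested. Whether the products of these 3 genes lie in Paneth granules was not tested. Ang4 at 1.25 and 1.96 thus lay on either side of the list's median. Leaving out germ-free replicate 1 gave a median of 1.18, and leaving out germ-free replicate 2 gave 2.15 with 8 called genes. Quantile normalization gave a median of 1.06 with 5 called, median centring left 1 called, and 0 were called without the variance trend.

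Of genes with one name and a tested probe set, 5 were nearest to Ang4 1438364_x_at in pattern over the 4 arrays, by root mean square distance of centred log2 values. They were 2410022M11Rik at 0.04, Lyz2, a lysozyme, at 0.04, Zcchc9, a zinc finger protein, at 0.06, Snhg4, a small nucleolar RNA host gene, at 0.07, and Oas1a, an oligoadenylate synthetase induced by interferon, at 0.07, out of 12106 candidates. Lyz2 read 15930.4 and 14913.7 on the conventionalized arrays, against 5626.7 and 6962.6 on the germ-free arrays, and was not called (log2 difference 1.30 ± 0.57). The other Ang4 probe set lay at a distance of 0.36, farther than these 5. This distance counts the size of a difference as well as the order of the arrays, and both Ang4 probe sets ranked the 4 arrays alike. None of the 5 was called by limma, and 4 arrays of 2 pools leave many genes with a like pattern. The 5 were picked for matching Ang4, so their differences follow from the choice and add no support. For 2410022M11Rik (87.9 and 106.0) and Zcchc9 (66.3 and 89.9) the germ-free signals were under 113.9. These 2 genes passed the signal filter through the conventionalized arrays.

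Genes around angiogenin action showed no called difference. Of 17 inhibitor, receptor and partner genes 14 were tested, limma called 0, 1 had an unadjusted p under 0.05, and the median was -0.03. Among all probe sets tested, 5.13% had an unadjusted limma p under 0.05. By the rule for naming, the brightest were Ybx1, an RNA-binding protein (0.57 ± 0.52), the cell surface proteoglycans Sdc4 (-0.10 ± 0.44) and Sdc1 (-0.18 ± 0.42), and Nsun2, an RNA methyltransferase (0.04 ± 0.43). Rnh1 and Plxnb2 are given for their roles and were named after their values were seen. Rnh1, the inhibitor, read 400.5 and 734.7 on the conventionalized arrays, against 281.6 and 378.4 on the germ-free arrays, a log2 difference of 0.68 ± 0.48. Plxnb2, a plexin that serves as an angiogenin receptor, read 470.8 and 262.9 on the conventionalized arrays, against 485.1 and 683.0 on the germ-free arrays, a log2 difference of -0.66 ± 0.47. The groups did not overlap for either, and neither was called. Nor did they overlap for Fst, Fbln1, Tia1, Trdmt1 and Eif2ak4 of this list, or for 31.1% of all probe sets tested. The list's median was -0.53 without conventionalized replicate 1 and 0.28 without conventionalized replicate 2.

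Ribonucleases outside the family held no called gene. Of 24 genes 19 were tested, limma called 0, 0 had an unadjusted p under 0.05, and the median log2 difference was 0.15 (-0.09 without germ-free replicate 2). The brightest were Drosha, which starts microRNA processing (0.37 ± 0.48), Rnaseh2c, a subunit of the enzyme that cuts RNA in RNA-DNA hybrids (0.53 ± 0.44), Ern1, the stress sensor that splices Xbp1 (-0.15 ± 0.43), and Dis3, an exosome nuclease (0.08 ± 0.44). Whether Ang4 departs from these genes was not tested.

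**Figure D4:**
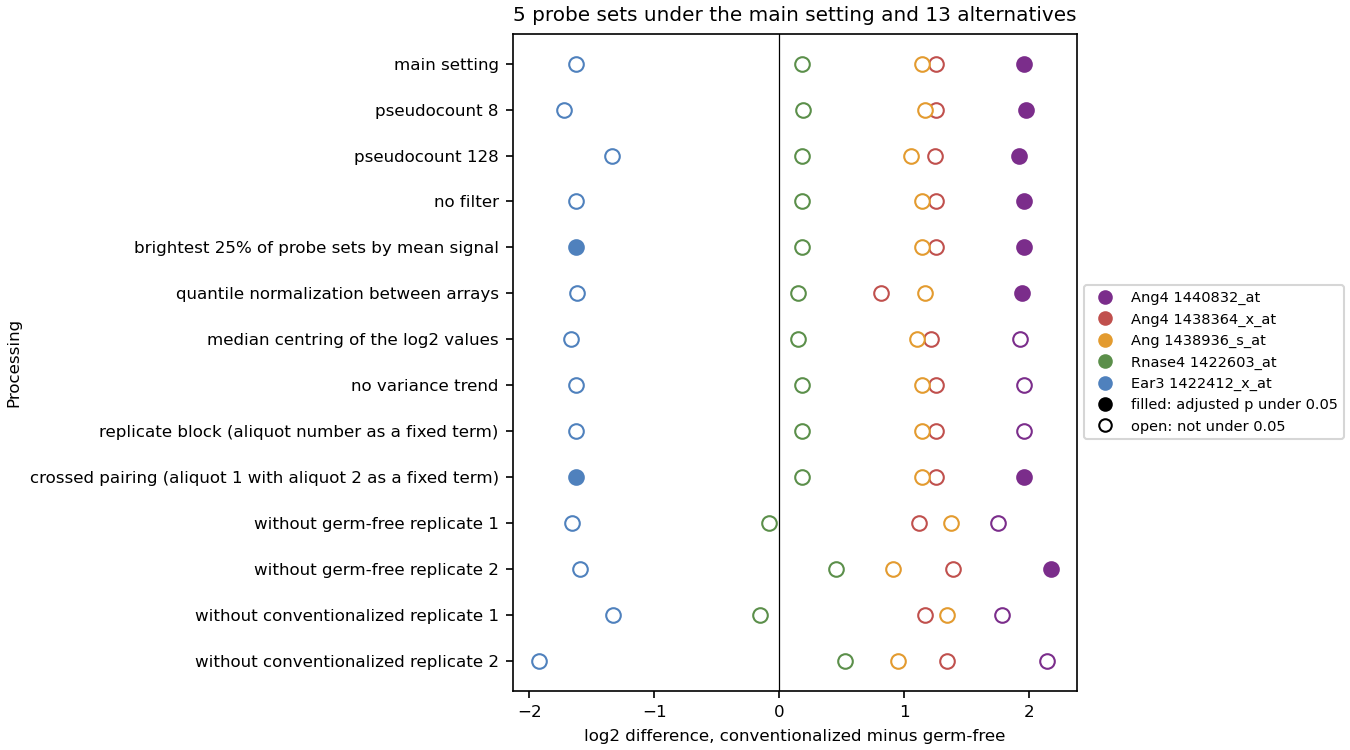
Log2 difference, conventionalized minus germ-free, of 5 family probe sets under the main setting and 13 alternatives (the crossed pairing was chosen after seeing the data), filled where the limma adjusted p was under 0.05. Ang4, Ang 1438936_s_at and Ear3 keep their sign throughout, Rnase4 crosses 0 in 2 alternatives, and the call of Ang4 1440832_at holds in 7 of the 13.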

How the data were processed

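Gene expression was measured on 4 Affymetrix arrays, 2 conventionalized and 2 germ-free. The authors deposited linear intensities for 45101 probe sets on each array. Every array's deposited intensities had a trimmed mean of 250 (2% cut from each tail), and so were taken as scaled by the authors. The software behind them is not given in the sources used here, and the number of arrays limits the precision. The 64 array controls were left out.

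The test was limma 3.58.1 in R 4.3.3 (lmFit, eBayes with a variance trend, two-sided, Benjamini-Hochberg over 22491 probe sets), on log2(intensity + 32). The pseudocount was the first power of 2 over the 20th percentile of the intensities. It understates changes of dim probe sets. Residual degrees of freedom were 2. Intervals are 95% normal intervals. Nothing in the labels pairs aliquot 1 with aliquot 1: deviations of same-numbered arrays correlated at -0.13.

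Symbols came from the platform annotation, matched by gene identifier to the RefSeq table, where 12 of 14 members matched. Of the probe sets, 34958 named 1 gene, 932 several and 9211 none. Promoters matched 8 of 11 member genes. In gene lists each gene stands for its brightest probe set. Named genes were all members, up to 4 per list (called, then brightest) and the 5 nearest to Ang4. Some marker lists were fixed but are given only as counts below. The members and lists were chosen with earlier results of these data known.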

Additional observations from a re-analysis of the deposited data

How the results depend on the processing

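Alternatives were pseudocounts 4 times lower (8) and 4 times higher, no filter, quantile normalization, median centring, testing the brightest 25%, no variance trend, the aliquot number as a replicate block, crossed pairing of aliquots (chosen after seeing the data) and leaving out each array, where the lone array of a pool is assumed to vary like the others. Over all probe sets limma called 75 (27 higher, 48 lower), against 33 with quantile normalization, 27 (6 and 21) with median centring, 0 without the trend (975 at an unadjusted p under 0.05), 30 with the replicate block, 228 with crossed pairing and 41 to 213 with 1 array left out. Family probe sets called were 1, against 2 in the brightest 25% and with crossed pairing, 0 with median centring, without the trend and with the block (3 at an unadjusted p under 0.05 in each), and 0 to 1 with 1 array left out. The family median of 0.19 was 0.66 in the brightest 25% and 0.22 to 0.71 with 1 array left out. Ang4 1440832_at lost its call with median centring (1.92), without the trend (1.96) and with the replicate block (1.96, limma adjusted p = 0.169), and ran from 1.75 to 2.18 with 1 array left out. Other signs that turned were Rnase10 with a pseudocount of 8 (0.019) and, with 1 array left out, Rnase10 (-0.70 to 0.68), Rnase1 (-0.50 to 1.33), Rnase4 (-0.15 to 0.52) and Ang3 (-1.68 to 0.71). The same-numbered arrays share only a number. Causes were not tested. Of the 14 members 8 had a mean signal under 300. The conventionalized duplicates of each of these 8 lay farther apart than the median gap of 0.62 over all probe sets tested.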

Other observations

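Of 8 B and plasma cell markers 4 were tested, with a median log2 difference of 0.53, 3 above 0 and 1 below. Igha, the constant region of immunoglobulin A, was called higher (2.44 ± 0.44), as were 0.107% of all genes tested. Jchain (0.93 ± 0.44) and Mzb1 (0.13 ± 0.59) were not called, nor was Ms4a1, which ran the other way (-1.58 ± 0.94). No member of the other lists was called by limma. Their medians were -0.43 for 9 enteroendocrine markers (3 at an unadjusted p under 0.05), -0.43 for 6 stem cell markers (0), 0.03 for 4 tuft cell markers (0), 0.28 for 4 T and innate lymphoid markers (1), -0.24 for 7 fibroblast markers (1), -0.61 for 4 smooth muscle markers (2) and -0.46 for 4 endothelial and blood markers (0). Over all probe sets tested, 5.13% had an unadjusted limma p under 0.05. All 7 mast cell markers were under the signal filter.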
